A study of Mus musculus with 12 samples.

Results

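Enzyme genes of drug and steroid metabolism were followed in mouse skeletal muscle in 4 families: cytochrome P450 (Cyp), glutathione transferase (Gst), UDP-glucuronosyltransferase (Ugt) and sulfotransferase (Sult) genes. Members were all genes whose symbol starts with Cyp and a digit, Gsta, Gstk, Gstm, Gsto, Gstp, Gstt, Gstz, Ugt1, Ugt2, or Sult and a digit. That gave 109 of 26570 genes, 69 Cyp, 23 Gst, 9 Sult and 8 Ugt, including 9 pseudogenes. RNA was sequenced from 12 libraries of C57BL/6N muscle, 3 in each of 4 groups. PCN libraries came from mice on a high-fat diet that were given pregnenolone carbonitrile, 50 mg/kg into the peritoneum on each of 4 days. Vehicle libraries came from mice on the same diet injected on the same schedule with 30% DMSO in corn oil. HFD libraries came from mice on the high-fat diet and Chow libraries from mice on regular chow, and the labels record no treatment for either. All diets began at 6 weeks of age and lasted 18 weeks. The labels name neither the muscle nor the animals' sex and do not state that each library is a separate mouse, so p-values measure the spread between these libraries.

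Cytochrome P450 enzymes oxidise drugs, steroids, fatty acids and vitamins, and the other 3 families attach glutathione, glucuronic acid or sulfate to the products. In mouse liver, pregnenolone carbonitrile activates the pregnane X receptor, which raises Cyp3a11 and several conjugating enzymes. The families are most abundant in liver, and skeletal muscle is known to hold glutathione transferases of the mu and pi classes.

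The muscle label fitted the defining markers, since all 8 (Acta1, Ckm, Mb, Ttn, Mylpf, Tnnt3, Myh4 and Pvalb) were counted in all 4 groups and together took 194000 to 392000 CPM (counts per 1e6 counts) of a library. Library totals were 12770308 to 19739226 counts. The HFD and Chow libraries were deposited in 1 table and the PCN and Vehicle libraries in another, so injection and table cannot be told apart wherever PCN or Vehicle is set against HFD or Chow. Levels below are CPM, counts scaled by the TMM-normalised size of all 12 libraries, and are given in the library order PCN 5, 11 and 27, Vehicle 15, 23 and 55, HFD 4, 30 and 38, and Chow 8, 17 and 19. Library sums of markers of other cell types differed as well. In RNA from whole tissue, fewer cells of a type and less RNA per cell cannot be told apart.

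Of the 109 members, 66 were in both tables, 27 only in the HFD and Chow table and 16 only in the PCN and Vehicle table. The 21 Gst genes in both were Gsta1, Gsta2, Gsta4, Gstk1, Gstm1, Gstm2, Gstm2-ps1, Gstm4, Gstm5, Gstm6, Gstm7, Gsto1, Gsto2, Gstp1, Gstp2, Gstp3, Gstp-ps, Gstt1, Gstt2, Gstt3 and Gstz1. Shared Cyp genes of families 1 to 3 were Cyp1a1, Cyp1b1, Cyp2a4, Cyp2ab1, Cyp2b9, Cyp2d22, Cyp2j6, Cyp2j8, Cyp2j9, Cyp2j11, Cyp2j13, Cyp2r1, Cyp2s1 and Cyp2u1. Shared family 4 genes were Cyp4a31, Cyp4a32, Cyp4b1, Cyp4f13, Cyp4f16, Cyp4f17, Cyp4f18, Cyp4f39, Cyp4f41-ps and Cyp4v3. The other shared Cyp genes, which act mostly on sterols, retinoids and vitamin D, were Cyp11a1, Cyp20a1, Cyp21a2-ps, Cyp26a1, Cyp26b1, Cyp26c1, Cyp27a1, Cyp27b1, Cyp39a1, Cyp46a1 and Cyp51. Shared conjugating genes also included Sult1a1, Sult1c2, Sult1e1, Sult5a1, Ugt1a2, Ugt1a6a, Ugt1a6b, Ugt1a7c, Ugt2b37 and Ugt2b38.

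Genes in the HFD and Chow table alone included the best-known liver P450s. They were Cyp2a5, Cyp2a12, Cyp2b10, Cyp2c23, Cyp2c29, Cyp2c37, Cyp2c50, Cyp2d10, Cyp2d12, Cyp2d26, Cyp2e1, Cyp2f2, Cyp2j5, Cyp3a11, Cyp3a13, Cyp4a10, Cyp4a14, Cyp4f14, Cyp4f15, Cyp4x1, Cyp7b1, Cyp24a1, Gsta3, Sult2b1, Sult6b1, Ugt1a5 and Ugt2b36. For PCN and Vehicle these 27 genes were not analysed here, so the mouse liver's standard response gene for pregnenolone carbonitrile, Cyp3a11, has no value in the injected groups. Genes in the PCN and Vehicle table alone were Cyp2a21-ps, Cyp2a22, Cyp2c39, Cyp2c40, Cyp2c52-ps, Cyp2c53-ps, Cyp2d38-ps, Cyp2d40, Cyp2d41-ps, Cyp3a16, Cyp3a44, Cyp4a12b, Gstt4, Sult2a7, Sult3a1 and Sult4a1. Each of these 16 had at most 11 counts summed over the 6 libraries. Ugt1a1 was not analysed here.

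Most members were at trace level: 69 of 109 had fewer than 10 counts in every library in which they were measured. After a filter on low counts, 33 members were tested, 16 Cyp, 15 Gst, 2 Sult and 0 Ugt. Of these, 32 could be compared over all 4 groups and Cyp2e1 only between HFD and Chow. The plot of levels by library shows the 33 genes.

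**Figure D1:**
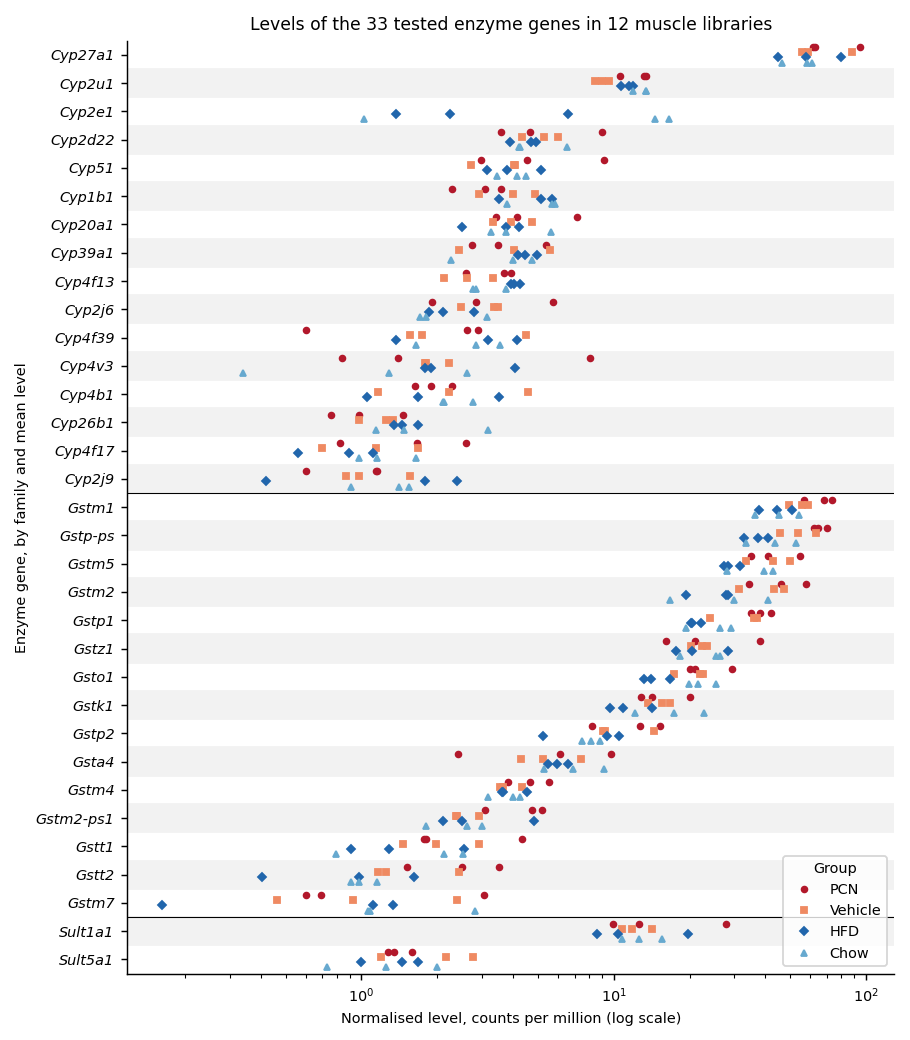
Each row is 1 of the 33 tested enzyme genes, ordered within the Cyp, Gst and Sult families by mean level, and each point is 1 library; the x axis is the normalised level in CPM on a log scale. Cyp27a1 is the highest Cyp gene and the only one above 40 CPM in every library, and Cyp2e1 has points for HFD and Chow only.

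Divided by exonic length, so that genes can be compared with each other, the highest members were the pi-class processed pseudogene Gstp-ps at 79.4 CPM per kb, Gstm1 at 35.8, Gstm5 at 29.7, Cyp27a1 at 29.6, Gstm2 at 21.0 and Gstp1 at 18.9 CPM per kb (means over the 4 groups). Gstk1, a glutathione transferase of mitochondria and peroxisomes, had 10.2 CPM per kb, and Sult1a1, which sulfates phenols, had 9.12 CPM per kb. The next Cyp genes after Cyp27a1 were Cyp2e1 at 3.27, over its 2 groups, and Cyp2u1 at 2.18 CPM per kb. The Ugt family was near 0 throughout: its highest members per length, Ugt1a6b and Ugt1a7c, had 0.113 and 0.0804 CPM per kb.

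The Gst genes gave most of the RNA. Summed over the 21 Gst genes in both tables, levels were 346, 361 and 373 CPM in the 3 PCN libraries, 277, 312 and 345 CPM in Vehicle, 222, 230 and 240 CPM in HFD and 209, 293 and 308 CPM in Chow, each given from lowest to highest. The PCN libraries lay above all others, and the Vehicle libraries lay above the HFD libraries but overlapped with Chow. Summed over 35 Cyp genes, levels were 111 to 139 CPM in PCN, 106 to 131 CPM in Vehicle, 105 to 126 CPM in HFD and 94.0 to 117 CPM in Chow, and all 4 groups overlapped. The 4 shared Sult genes summed to 18.3 ± 9.71 CPM in PCN, 14.5 ± 2.52 CPM in Vehicle, 14.3 ± 5.77 CPM in HFD and 14.4 ± 2.24 CPM in Chow (SD, n = 3 each). The 6 shared Ugt genes summed to 0.325 to 1.97 CPM in PCN, 0.651 to 1.03 CPM in Vehicle, 0.323 to 1.34 CPM in HFD and 0.283 to 1.06 CPM in Chow.

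Over the 4 groups together, no member passed the threshold. An F test with 3 degrees of freedom (edgeR quasi-likelihood, adjusted over 13375 genes, threshold 0.05) called 0 of 32 members, against 0.179% of all genes, and the lowest member adjusted p was 0.0973 for Gstp1. At an unadjusted p under 0.05 there were 7 of 32 members, against 15.5% of all genes: Gstp1, Gstp-ps, Gsto1, Gstm1, Gstm2, Gstt2 and Cyp2u1. Among the 15 tested Gst genes the mean was highest in PCN for 12 and in Chow for 3, and lowest in HFD for 10. Taking the middle library of each group in place of the mean, PCN was highest for 8 and HFD lowest for 9. The 15 Cyp genes had no such order, with the mean highest in PCN for 7, in HFD for 4, in Chow for 3 and in Vehicle for 1.

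The members that differed in PCN against HFD were 3 glutathione transferase genes, all higher in PCN: Gstp1 and Gstp-ps by 1.83 and 1.78 times, and Gsto1 by 1.60 times. Gstp1 is the main pi-class enzyme and conjugates electrophiles in the cytosol, and Gstp-ps is an intronless pi-class copy. Gsto1 is an omega-class enzyme that reduces dehydroascorbate and mixed disulfides. These 3 of 32 members compare with 4.14% of all 13375 genes called in PCN against HFD, and with 2.32% called higher. All 15 tested Gst genes had a positive log2 fold change, against 50.6% of all genes, with a median of 0.58 beside 0.01 for all genes. The lowest, 0.002 ± 0.397 for Gsta4 (SE), was no change. The 15 include the pseudogenes Gstp-ps and Gstm2-ps1, which are near copies of other members. Of the 32 members, 6 were higher in every PCN library than in every HFD library, all of them Gst genes, against 13.5% of all genes. At an unadjusted p under 0.05 there were 8 of 32 members, against 22.3% of genes: 7 Gst genes, higher in PCN, and Cyp1b1, lower in PCN. The log2 fold changes of the same 3 genes in Vehicle against HFD were 0.50 to 0.63 and did not pass the threshold.

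Gstp1 (ENSMUSG00000060803, chr19:4035407-4037921, GRCm38, minus strand) had 38.1, 34.9 and 42.0 CPM in PCN, 36.0, 37.1 and 24.1 CPM in Vehicle, 20.4, 22.2 and 20.3 CPM in HFD and 29.3, 26.5 and 19.4 CPM in Chow. Every PCN library lay above every HFD and Chow library, every Vehicle library lay above every HFD library, and Vehicle 55 stood below the other 2 of its group. The log2 fold change of PCN against HFD was 0.87 ± 0.19 (SE; edgeR adjusted p = 0.0256), that of Vehicle against HFD 0.63 ± 0.19 (adjusted p = 0.231) and that of PCN against Chow 0.62 ± 0.18 (adjusted p = 0.165). Both comparisons against HFD share its 3 libraries. The group means were 38.3 ± 3.55 CPM in PCN, 32.4 ± 7.20 CPM in Vehicle, 20.9 ± 1.08 CPM in HFD and 25.1 ± 5.12 CPM in Chow (SD, n = 3 each).

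Gstp-ps (ENSMUSG00000103653, chr1:192073820-192074450, GRCm38, minus strand) had 62.1, 64.9 and 70.4 CPM in PCN, 53.6, 63.6 and 45.6 CPM in Vehicle, 40.9, 37.3 and 32.8 CPM in HFD and 52.8, 43.8 and 33.4 CPM in Chow. PCN again lay above HFD and Chow without overlap, and Vehicle above HFD. Its log2 fold change of PCN against HFD was 0.83 ± 0.18 (SE; edgeR adjusted p = 0.0256). This pseudogene and Gstp1 are near copies, so their counts cannot be taken as independent. The coding sequence of Gstp1 is 633 bases and the pseudogene 631, and over the 631 aligned bases they were 97.6% identical, with 15 substitutions and an identical run of 303 bases. Gstp1 and its neighbour Gstp2 were 98.1% identical over 633 coding bases. Of the 15 substitutions in Gstp-ps, all but G67A, C159T, C162T and G291A also separate Gstp1 from Gstp2. The only other substitution in Gstp2 is G35C. By these positions the pseudogene is closer to Gstp2 than to Gstp1, although Gstp-ps and Gstp2 were not aligned directly. Gstp2 did not pass in PCN against HFD (edgeR adjusted p = 0.273). Of all 50-base stretches of the exons, 71.1% in Gstp-ps, 54.3% in Gstp2 and 33.7% in Gstp1 also occurred in another gene. Reads from such stretches cannot be placed by sequence alone.

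The 90 coding bases with the most differences between Gstp1 and Gstp-ps show how few bases separate them. They are coding positions 241 to 330, counted from 1 at the A of the start codon of Gstp1, from the GENCODE vM21 models on GRCm38. Capitals mark the 7 substitutions, A268G, G291A, T314G, C319A, C321G, C329G and C330A, with the Gstp1 base first. All but G291A also separate Gstp1 from Gstp2.
Gstp1: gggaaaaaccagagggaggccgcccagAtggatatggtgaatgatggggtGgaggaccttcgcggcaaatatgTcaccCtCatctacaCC
Gstp-ps: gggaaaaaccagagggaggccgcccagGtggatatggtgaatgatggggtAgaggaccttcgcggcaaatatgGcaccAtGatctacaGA

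Gsto1 (ENSMUSG00000025068, chr19:47854970-47864790, GRCm38, plus strand), which shared no 50-base stretch with another gene, had 29.5, 20.1 and 21.0 CPM in PCN, 17.4, 22.0 and 22.7 CPM in Vehicle, 13.2, 14.0 and 16.8 CPM in HFD and 19.9, 25.4 and 21.6 CPM in Chow. HFD was the low group: each of its libraries lay below every library of the other 3 groups. The log2 fold change of PCN against HFD was 0.68 ± 0.18 (SE; edgeR adjusted p = 0.0495), that of Vehicle against HFD 0.50 ± 0.18 (adjusted p = 0.273) and that of HFD against Chow -0.59 ± 0.15 (adjusted p = 0.511). Without PCN 5, the highest library, the PCN against HFD value was 0.47 ± 0.18 (adjusted p = 0.137).

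**Figure D2:**
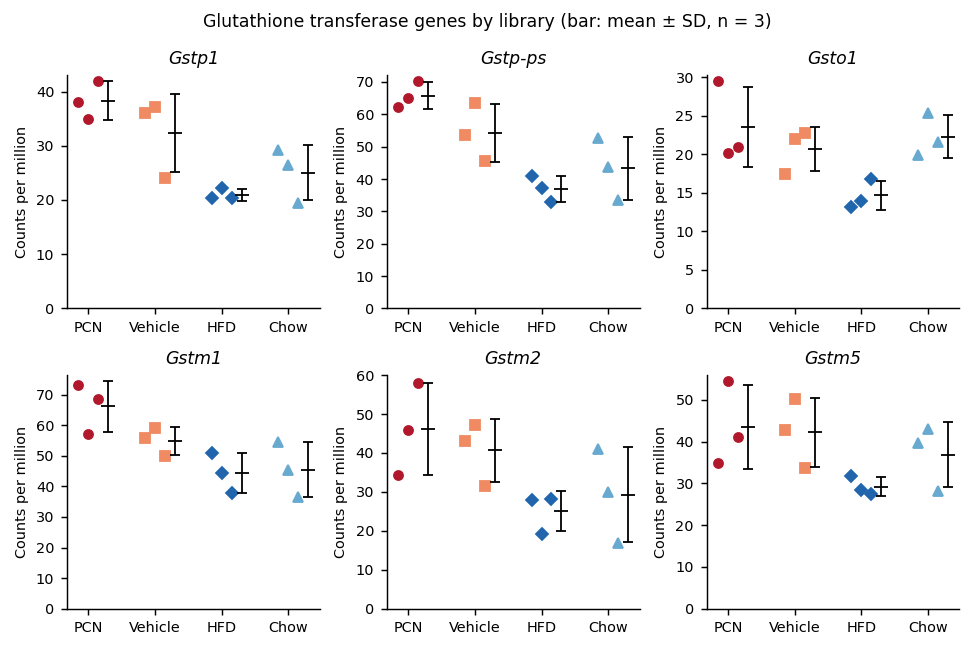
CPM of 6 glutathione transferase genes in each library, with each group's mean ± SD (n = 3) beside its points. HFD is the lowest group by mean in all 6 panels and overlaps with PCN in none; Vehicle 55 is the lowest Vehicle library for all but Gsto1.

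The mu-class genes, which conjugate electrophiles in the cytosol and lie in a cluster on chromosome 3, were next. Gstm1 had 73.2, 57.0 and 68.5 CPM in PCN, 55.9, 59.0 and 49.8 CPM in Vehicle, 50.8, 44.5 and 37.7 CPM in HFD and 54.5, 45.3 and 36.5 CPM in Chow. Gstm2 had 34.3, 46.0 and 58.0 CPM in PCN, 43.1, 47.3 and 31.5 CPM in Vehicle, 28.0, 19.3 and 28.3 CPM in HFD and 41.1, 29.9 and 16.8 CPM in Chow. Gstm5 had 35.0, 54.6 and 41.1 CPM in PCN, 42.8, 50.2 and 33.6 CPM in Vehicle, 31.7, 28.5 and 27.4 CPM in HFD and 39.6, 43.0 and 28.1 CPM in Chow. All 3 genes separated PCN from HFD without overlap, while Chow overlapped with HFD for all 3 and with PCN for Gstm2 and Gstm5. Their log2 fold changes of PCN against HFD were 0.58 ± 0.17, 0.87 ± 0.30 and 0.58 ± 0.20 (SE; edgeR adjusted p = 0.067, 0.112 and 0.112), so none passed the threshold.

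The processed pseudogene Gstm2-ps1 (chr5:116632908-116633564, GRCm38, minus strand) had 5.22, 3.09 and 4.74 CPM in PCN, 2.37, 2.93 and 2.39 CPM in Vehicle, 4.85, 2.10 and 2.51 CPM in HFD and 2.61, 3.01 and 1.81 CPM in Chow. It was 1 of 2 members higher in every PCN library than in every Vehicle library, against 4.22% of genes. Despite its name its sequence was closer to Gstm1, with 97.9% of 657 aligned bases identical, than to Gstm2, with 84.8%. The log2 fold change against Vehicle was 0.77 ± 0.27 (SE; edgeR adjusted p = 0.998). Gstt2, a theta-class gene, had 3.50, 1.51 and 2.51 CPM in PCN, 1.16, 1.25 and 2.44 CPM in Vehicle, 0.404, 0.980 and 1.62 CPM in HFD and 0.977, 1.15 and 0.906 CPM in Chow. Its PCN libraries lay above all Chow libraries but overlapped with HFD, and its log2 fold change of 1.28 ± 0.45 against HFD did not pass (edgeR adjusted p = 0.118).

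The other 7 tested Gst genes had an unadjusted p above 0.05 in PCN against HFD. Gstk1 had 20.0, 12.8 and 14.2 CPM in PCN, 13.7, 15.6 and 16.7 CPM in Vehicle, 9.70, 10.9 and 14.2 CPM in HFD and 17.3, 22.8 and 12.1 CPM in Chow. HFD 4 and HFD 30 lay below every library of the other groups, and HFD 38 overlapped with all 3 groups. Gsta4, which conjugates hydroxynonenal from oxidised lipids, had 9.74, 6.12 and 2.41 CPM in PCN, 4.29, 5.26 and 7.43 CPM in Vehicle, 5.49, 5.95 and 6.58 CPM in HFD and 6.92, 9.17 and 5.27 CPM in Chow. The 3 PCN libraries of Gsta4 spanned the range of all others. Gsta3, an alpha-class enzyme, was analysed in HFD and Chow only and had 2, 1 and 4 counts in HFD and 7, 1 and 0 counts in Chow. For the 5 other tested Gst genes, Gstm4, Gstm7, Gstp2, Gstt1 and Gstz1, log2 fold changes of PCN against HFD were 0.17 to 0.69 and none passed. The largest were 0.69 ± 0.50 for Gstt1 and 0.67 ± 0.82 for Gstm7 (SE), close to that of Gsto1 but with wider errors.

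**Figure D3:**
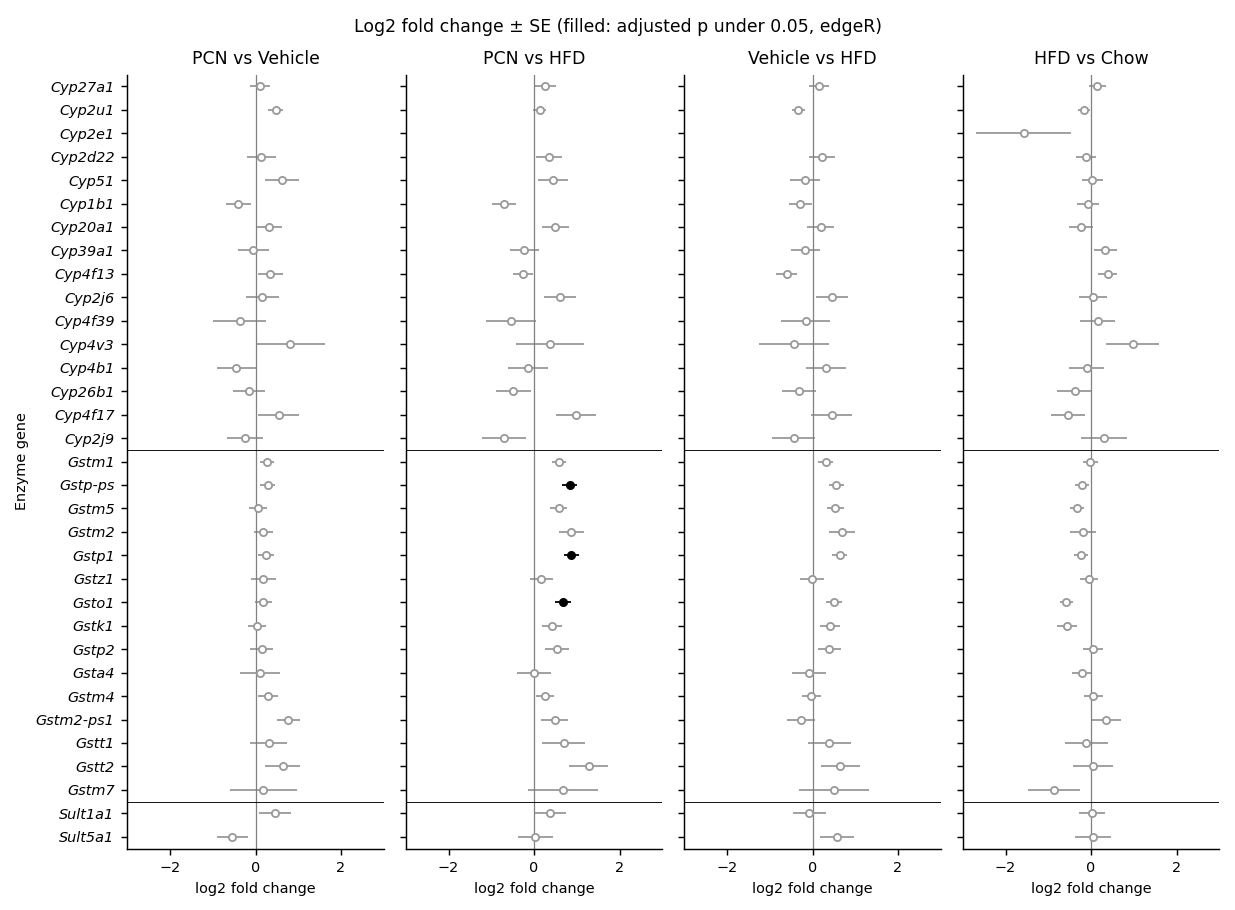
Log2 fold changes (points) with standard errors (bars) of the tested enzyme genes in 4 comparisons, edgeR; filled points passed an adjusted p under 0.05. The filled points are Gstp1, Gstp-ps and Gsto1 in PCN against HFD. Gst points lie right of 0 in PCN against HFD, except Gsta4, which lies almost at 0.

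Several measurements moved together with the PCN and HFD difference. Short genes were higher and long genes lower in PCN: the median log2 fold change was 0.20 in the shortest of 5 equal groups of genes by exonic length, whose middle gene has 1.63 kb of exons, and -0.17 in the longest, whose middle gene has 9.91 kb. In Vehicle against HFD these medians were 0.17 and -0.15 (rounded), and in PCN against Vehicle 0.03 and -0.01. Of the 15 tested Gst genes, 13 were in the shortest group, where 4.97% of genes were called higher, against 2.32% of all genes. With each library's trend of level on exonic length removed, 0 members and 299 genes were called, and the log2 fold changes were 0.68 ± 0.17 for Gstp1 (edgeR adjusted p = 0.0516), 0.59 ± 0.18 for Gstp-ps (adjusted p = 0.0856) and 0.53 ± 0.18 for Gsto1 (adjusted p = 0.115). The calls depended on single libraries more than the fold changes did. Leaving out HFD 4, HFD 30, HFD 38 or PCN 27 left 0 members and 6 to 73 genes called, with log2 fold changes of 0.79 to 0.92 for Gstp1, 0.75 to 0.91 for Gstp-ps and 0.61 to 0.79 for Gsto1. Leaving out PCN 5 left Gstp1 and Gstp-ps called, 2 of 34 members, against 2.97% of genes. The direction of the 15 Gst genes was positive for 12 without PCN 5 (median 0.47) and for 14 with the length trend removed (median 0.38).

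Cell type markers also differed between the 2 groups, and their part in the Gst values was not tested. The 7 fibroblast and matrix markers summed to 283 to 467 CPM in PCN and 516 to 935 CPM in HFD, with 6 of 7 negative and 2 called lower. The 8 adipocyte markers summed to 111 to 135 CPM in PCN and 108 to 515 CPM in HFD, all 8 negative and 0 called. The 5 red blood cell markers (Hba-a1, Hba-a2, Hbb-bs, Hbb-bt and Alas2) moved the same way as the Gst genes. They summed to 63.1 to 76.3 CPM in PCN and 49.0 to 60.2 CPM in HFD without overlap, with all 5 positive, a median log2 fold change of 0.45 and 0 called, and in Vehicle against HFD all 5 were positive too. The 8 muscle markers summed to 194000 to 292000 CPM in PCN and 274000 to 392000 CPM in HFD, and 0 were called.

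**Figure D4:**
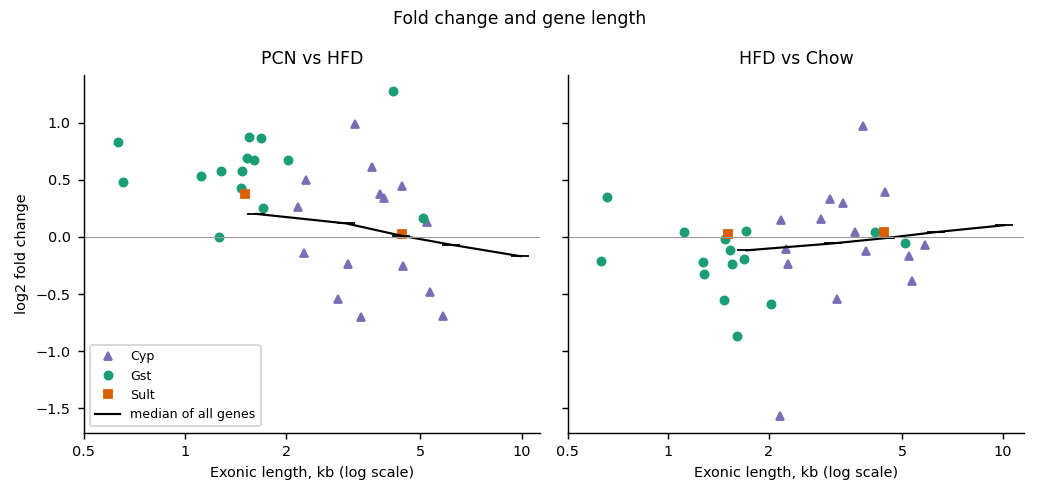
Log2 fold change of each tested enzyme gene (points, by family) against its exonic length in kb on a log scale, for PCN against HFD and for HFD against Chow; the black line joins the medians of 5 equal groups of all tested genes by length. The line falls with length in PCN against HFD and climbs with length in HFD against Chow, and most Gst genes lie at its short end.

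Pregnenolone carbonitrile itself was tested by PCN against Vehicle, where 0 of 32 members passed, against 0% of 12833 genes called by edgeR, and the lowest member adjusted p was 0.998. DESeq2 called 0 of 82 members and 0 of 24453 genes. At an unadjusted p under 0.05 there were 2 of 32 members, Cyp2u1 and Gstm2-ps1, against 2.82% of genes, and both were higher in PCN. Cyp2u1 (chr3:131288441-131303227, GRCm38, minus strand), which hydroxylates long-chain fatty acids, had 13.2, 13.4 and 10.6 CPM in PCN, 9.56, 8.95 and 8.46 CPM in Vehicle, 11.9, 10.7 and 11.5 CPM in HFD and 11.9, 13.4 and 13.4 CPM in Chow. Vehicle was the low group, below every library of the other 3. Its log2 fold change was 0.47 ± 0.17 against Vehicle for PCN (SE; edgeR adjusted p = 0.998) and -0.52 ± 0.15 for Vehicle against Chow (adjusted p = 0.445).

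Across all 32 members, 25 log2 fold changes of PCN against Vehicle were positive and 7 negative, with a median of 0.18, while the median of all genes was 0.01. All 15 Gst genes were positive, against 52.3% of all genes, with a median of 0.18. The excess over all members rested on PCN 5: without it, 15 of 33 tested members were positive with a median of -0.12. Of the 15 Gst genes 9 were then positive, with a median of 0.19. PCN 5 was the highest of the 3 PCN libraries for 19 of the 32 members, PCN 27 for 7 and PCN 11 for 6. The median coefficient of variation of a member was 31.0% in PCN, 20.7% in Vehicle, 24.5% in HFD and 23.5% in Chow. The largest was that of Cyp4v3 in PCN, 117%, which had 8.09 CPM in PCN 5 and 1.39 and 0.836 CPM in the other 2 libraries.

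PCN 5 also carried trace counts of enzymes known mainly from liver. It had a count for 71 of the 82 members in its table, against 47 to 55 in the other 5 libraries, and 17 of 82 members, 20.7%, were counted in it alone, against 2.79% of all genes of the table. Cyp3a44, a P450 of the family of Cyp3a11, had 11 counts in PCN 5 and 0 in each of the other 5 libraries, Cyp2d38-ps had 10 and 0, Cyp2d40 had 9 and 0, and Gsta1 had 6 and 0. Gsta2 had 9 counts in PCN 5, 1 in Vehicle 55 and 0 in the other 4. A further 3 genes picked after their values were seen, Gstm6, Gstt3 and Ugt1a6b, had 33, 30 and 19 counts in PCN 5 and at most 11, 9 and 7 counts in any other library. Since 1 library of 3 carried them, they give no PCN difference. Hepatocyte markers were not analysed here in the injected groups, and the kidney tubule markers Slc34a1 and Slc22a6 were both at 0 in PCN 5. PCN 5 also had the most counts of Tpm3, a slow-fibre tropomyosin, among the injected libraries, 1150 against 177 to 529.

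**Figure D5:**
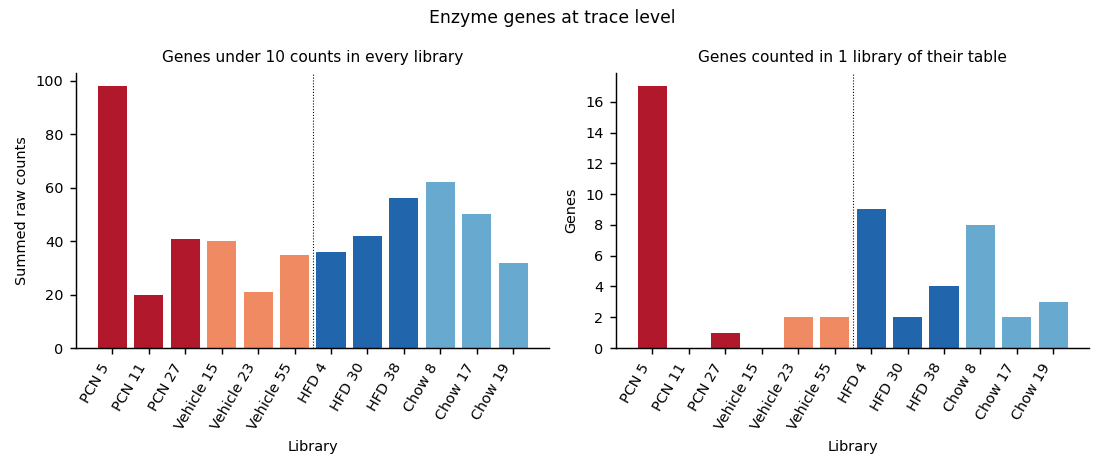
Left, raw counts summed over the enzyme genes with fewer than 10 counts in every library; right, the number of enzyme genes counted in that library alone within its own table (a dotted line parts the tables). PCN 5 has 98 summed counts and 17 genes of its own, more than any other library.

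Among the uninjected libraries such traces were most frequent in HFD 4 or Chow 8, by the measure used. HFD 4 had 9 of 93 members counted in it alone, 9.68%, against 1.85% of the genes of its table, and Chow 8 had 8, 8.60%, against 1.83%. HFD 4 had a count for 60 of the 93 members and Chow 8 for 66, and the members with fewer than 10 counts in every library summed to 36 counts in HFD 4 and 62 in Chow 8. Liver P450s counted in HFD 4 alone included Cyp2b10 with 4 counts, Cyp2c29 with 3, and Cyp2c37 and Cyp2a12 with 2 each. Of 10 hepatocyte markers 9 were in the table, with 88 counts in HFD and 24 in Chow, where 6 of the 9 were at 0. HFD 4 was high here too, with 43 counts of Alb, 8 of Ahsg and 8 of Fga. The other libraries of the table had at most 9 counts of Alb and 0 of the other 2. Apoa2 had 5 counts in HFD 4 and 6 in HFD 38. The kidney tubule markers Lrp2 and Slc34a1 were highest in Chow 8, with 22 and 21 counts, against at most 4 and 15 in another library of the table. Slc22a6 had 4 counts in both Chow 8 and HFD 38. The part of such RNA in these members was not tested. Cyp3a11 had 1, 0 and 0 counts in HFD and 1, 1 and 0 counts in Chow. Cyp3a13, its family member in gut and liver, had 1, 3 and 0 counts in HFD and 1, 3 and 0 counts in Chow. A count of 3 in a library equals 0.139 to 0.244 CPM, so neither gene could be followed at this depth.

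The high-fat diet changed no member beyond the threshold: 0 of 33 members passed in HFD against Chow, against 0% of 12686 genes called, and the lowest member adjusted p was 0.511, for Gsto1 (edgeR). DESeq2 called 0 of 93 members and 44 genes. Without a filter on low counts edgeR called 1 of 93 members, Gsto1 (adjusted p = 0.0442), against 0.984% of genes. At an unadjusted p under 0.05 there were 2 members, Gsto1 and Gstk1, against 7.70% of genes, and both were lower in HFD. Gstk1 had a log2 fold change of -0.56 ± 0.23 (SE; edgeR adjusted p = 0.643). Of the 15 Gst genes, 11 were negative with a median of -0.19, and the 16 Cyp genes split 8 and 8 with a median of -0.02. The Gst median depended on single libraries in both directions. Leaving out Chow 8 gave -0.04, leaving out Chow 17 gave -0.03 and leaving out HFD 30 gave -0.05. Leaving out Chow 19 gave -0.40, with 12 of 15 negative, and leaving out HFD 38 gave -0.28. Without Chow 19 edgeR called 219 genes and 0 members, with a lowest member adjusted p of 0.0705. Groups did not overlap for 3 of 33 members, Gsto1, Cyp2u1 and Cyp4f13, against 12.8% of genes. In this comparison short genes were the lower ones, with a median of -0.12 in the shortest of 5 groups and 0.10 in the longest, and 13 of the 15 Gst genes were in the shortest. The 5 red blood cell markers summed to 49.0 to 60.2 CPM in HFD and 69.9 to 136 CPM in Chow without overlap, all 5 negative and 4 of them at an unadjusted p under 0.05. The 7 slow-fibre markers of this table were all negative, with a median log2 fold change of -4.81 and all 7 at an unadjusted p under 0.05, although edgeR called 0. Chow 17 and Chow 19 carried them, with 3055 and 5826 counts of the slow myosin gene Myh7 against 30 in Chow 8 and 16 to 38 in HFD. Leaving out both of these Chow libraries gave 12 of 15 Gst genes negative with a median of -0.29, but left Chow 8 alone in its group, with no replicate. The part of the slow-fibre and red blood cell markers was not tested.

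Cyp2e1, which oxidises ethanol, acetone and fatty acids, had the lowest log2 fold change of the members. It had 1.37, 2.24 and 6.58 CPM in HFD and 14.6, 16.6 and 1.02 CPM in Chow. Chow 8 and Chow 17 stood above all HFD libraries and Chow 19 below them. The log2 fold change was -1.57 ± 1.11 (SE; edgeR adjusted p = 0.756). In Chow 19 the adipocyte marker Adipoq was low as well, with 16 counts against 433 in Chow 8 and 267 in Chow 17. In HFD 38, the highest HFD library for Cyp2e1, Adipoq had 874 counts against 138 in HFD 4 and 199 in HFD 30. Another adipocyte marker, Adig, had 17 counts in Chow 19, 18 in Chow 8 and 60 in Chow 17. The orders did not match throughout. HFD 38 had more Adipoq than Chow 8 but less Cyp2e1, 6.58 against 14.6 CPM. Chow 17 had more Cyp2e1 than Chow 8 with less Adipoq. The part of adipocyte RNA in the Cyp2e1 values was not tested.

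None of the tested sterol and steroid P450s passed the edgeR threshold in any comparison. Cyp27a1, the mitochondrial sterol hydroxylase of bile acid synthesis, had 61.9, 62.6 and 94.4 CPM in PCN, 87.9, 59.1 and 56.0 CPM in Vehicle, 79.9, 57.9 and 44.9 CPM in HFD and 61.4, 58.2 and 46.7 CPM in Chow. PCN lay just above Chow without overlap, by a log2 fold change of 0.40 ± 0.24 (SE; edgeR adjusted p = 0.462). Cyp51, the lanosterol demethylase of cholesterol synthesis, had 9.17, 4.54 and 2.97 CPM in PCN, 2.72, 4.07 and 4.01 CPM in Vehicle, 3.15, 3.78 and 5.13 CPM in HFD and 4.15, 4.49 and 3.45 CPM in Chow. Only PCN 5 stood apart for Cyp51. Cyp39a1, an oxysterol hydroxylase, and the orphan Cyp20a1 had unadjusted p above 0.05 in each comparison.

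Cyp1b1, which oxidises oestradiol and polycyclic hydrocarbons, had 3.57, 3.09 and 2.28 CPM in PCN, 4.00, 4.88 and 2.93 CPM in Vehicle, 5.17, 3.50 and 5.68 CPM in HFD and 5.70, 5.84 and 3.79 CPM in Chow. PCN lay below Chow without overlap and overlapped with HFD. Its log2 fold change was -0.78 ± 0.28 against Chow and -0.70 ± 0.28 against HFD (SE; edgeR adjusted p = 0.226 and 0.156). Cyp26b1, which breaks down retinoic acid, had 1.46, 0.757 and 0.975 CPM in PCN, 1.33, 1.25 and 0.976 CPM in Vehicle, 1.45, 1.68 and 1.34 CPM in HFD and 1.14, 1.48 and 3.17 CPM in Chow. Chow 19 alone was high, and the log2 fold change of PCN against Chow was -0.88 ± 0.40 (SE; edgeR adjusted p = 0.326). The fibroblast markers were lower in PCN than in Chow too, with sums of 283 to 467 CPM in PCN and 504 to 764 CPM in Chow and all 7 negative, and their part in the Cyp1b1 values was not tested.

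Cyp4f13, of a family of fatty acid and eicosanoid hydroxylases, had 3.69, 2.59 and 3.90 CPM in PCN, 2.61, 2.12 and 3.31 CPM in Vehicle, 4.04, 4.27 and 3.90 CPM in HFD and 2.85, 2.76 and 3.74 CPM in Chow. HFD was the high group and lay above Vehicle, Chow and PCN without overlap, although PCN 27 and HFD 38 both round to 3.90 CPM. The log2 fold change of Vehicle against HFD was -0.60 ± 0.24 and that of HFD against Chow 0.39 ± 0.22 (SE; edgeR adjusted p = 0.322 and 0.671). Cyp4b1, which hydroxylates fatty acids and some toxins, had 2.29, 1.89 and 1.63 CPM in PCN, 1.16, 2.22 and 4.56 CPM in Vehicle, 1.05, 1.68 and 3.51 CPM in HFD and 2.12, 2.76 and 2.10 CPM in Chow. Its 2 highest libraries, Vehicle 55 and HFD 38, had the most counts of the adipocyte marker Plin1 in their groups, 563 and 680. In PCN and Chow the orders differed. PCN 5, the highest PCN library for Cyp4b1, had 34 Plin1 counts against 114 in PCN 11 and 147 in PCN 27. Chow 17, the highest Chow library, had 154 against 212 in Chow 8. Another adipocyte marker, Retn, had 72 counts in Vehicle 23 and 56 in Vehicle 55. The part of adipocyte RNA was not tested. Cyp1a1, the classic target of the dioxin receptor, stayed at 2 to 8 counts in every library and was not tested.

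No Sult gene passed in any comparison, and no Ugt gene was abundant enough to be tested. Sult1a1 had 28.0, 12.6 and 9.98 CPM in PCN, 14.2, 10.8 and 11.8 CPM in Vehicle, 8.57, 10.4 and 19.7 CPM in HFD and 15.5, 12.6 and 10.8 CPM in Chow, with PCN 5 and HFD 38 the high libraries. Sult5a1 had 20, 25 and 29 raw counts in PCN, 48, 40 and 22 in Vehicle, 18, 24 and 18 in HFD and 9, 31 and 22 in Chow, with Vehicle 15 and Vehicle 23 the high libraries. Sult1e1, the oestrogen sulfotransferase, had 0 to 7 counts per library, with the 7 in Vehicle 15. The Ugt1a genes share their last exons at 1 locus on chromosome 1, so their reads can be split or lost between them. Ugt1a6b had 19, 1 and 2 counts in PCN, 4, 7 and 6 counts in Vehicle, 0, 0 and 7 counts in HFD and 6, 0 and 1 counts in Chow. Ugt1a7c had 7, 4 and 2 counts in PCN, 5, 11 and 5 counts in Vehicle, 3, 7 and 11 counts in HFD and 5, 4 and 2 counts in Chow. Ugt1a6a had at most 5 counts in a library.

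The other 3 comparisons across tables called no member. In PCN against Chow 0 of 32 passed, against 0.127% of genes, with a lowest adjusted p of 0.156, and in Vehicle against Chow 0 of 32 passed, against 0.015% of genes, with a lowest adjusted p of 0.445. In Vehicle against HFD 0 of 32 passed, against 0% of genes, with a lowest adjusted p of 0.231. At an unadjusted p under 0.05 there were 8 of 32 members in PCN against Chow (14.5% of genes), 1 of 32 in Vehicle against Chow (6.72% of genes) and 7 of 32 in Vehicle against HFD (12.8% of genes). In Vehicle against HFD these were Gstp1, Gstp-ps, Gsto1, Gstm2 and Gstm5, higher in Vehicle, and Cyp2u1 and Cyp4f13, lower in Vehicle.

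Promoters of Gstp1 and Gsto1 are shown because these genes passed in PCN against HFD, and that of Gstp2 because it is a near copy. Each runs from 250 bases before to 50 after the annotated start, from RefSeq on GRCm38.p6, written 5′ to 3′ on the gene's strand. Capitals mark the AP-1 element TGACTCA, found on the other strand and so printed as TGAGTCA, which begins 74 bases before the start in Gstp1 and 89 before it in Gstp2. Gstp1 is chr19:4037863-4038162 on the minus strand, Gstp2 is chr19:4042172-4042471 on the minus strand and Gsto1 is chr19:47854723-47855022 on the plus strand.
Gstp1: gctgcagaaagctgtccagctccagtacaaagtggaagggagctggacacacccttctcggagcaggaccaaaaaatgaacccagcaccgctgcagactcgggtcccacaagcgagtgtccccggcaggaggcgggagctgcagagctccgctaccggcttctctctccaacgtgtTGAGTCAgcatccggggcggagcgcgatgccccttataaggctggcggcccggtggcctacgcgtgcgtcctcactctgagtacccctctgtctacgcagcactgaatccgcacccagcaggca
Gstp2: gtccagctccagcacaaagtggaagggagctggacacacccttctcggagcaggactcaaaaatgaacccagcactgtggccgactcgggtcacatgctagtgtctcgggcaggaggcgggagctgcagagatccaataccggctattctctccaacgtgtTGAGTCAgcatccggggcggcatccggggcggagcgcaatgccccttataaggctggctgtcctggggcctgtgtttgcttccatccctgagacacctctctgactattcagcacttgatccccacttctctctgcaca
Gsto1: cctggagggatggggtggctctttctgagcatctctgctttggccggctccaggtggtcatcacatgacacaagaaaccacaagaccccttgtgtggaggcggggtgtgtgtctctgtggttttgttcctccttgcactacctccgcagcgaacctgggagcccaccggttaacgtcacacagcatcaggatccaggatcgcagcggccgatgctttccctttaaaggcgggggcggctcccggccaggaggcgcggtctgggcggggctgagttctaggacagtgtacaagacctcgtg

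On both strands 7 motifs were searched, chosen with these promoters in view. TGACTCA was in the promoters of 3 of the 25 tested members that had one in the table, Gstp1, Gstp2 and Gstm5, and in 5.20% of all 32851 promoters of the same length. The antioxidant response core TGACNNNGC was in 4 of the 25 and in 12.4% of all promoters, and the dioxin receptor core GCGTG in 9 of the 25 and in 32.4% of all promoters. The other 4 were repeats of the half-sites of the pregnane X receptor, 2 direct repeats spaced by 3 bases and 2 everted repeats spaced by 6. They were in 0 of the 25 promoters, and each was in 0 to 2 of all promoters. A match describes letters only.

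Other genes of the pathway were taken from a list of 56, of which 50 were in both tables. Nr1i2, the pregnane X receptor, was not analysed here, and Nr1i3, Hnf4a, Pgrmc1, Mgst1 and Aldh1a7 were analysed in HFD and Chow only. In PCN against Vehicle 0 of 42 tested pathway genes passed, and in HFD against Chow 0 of 44, with 0% of all genes called in each. In PCN against HFD 1 of 44 passed, against 4.14% of all genes. It was Fmo2, a flavin monooxygenase, with 27.2 ± 10.9 CPM in PCN and 13.9 ± 3.50 CPM in HFD (SD, n = 3 each). Its log2 fold change was 0.96 ± 0.25 (SE, edgeR adjusted p = 0.0452). The next by p were Fmo1, 15.5 ± 5.25 CPM in PCN and 8.73 ± 1.85 CPM in HFD, and the quinone reductase Nqo1, 24.3 ± 3.98 CPM in PCN and 16.3 ± 2.18 CPM in HFD (edgeR adjusted p = 0.0605 and 0.07). Log2 fold changes of Vehicle against HFD were 0.796 for Fmo2, 0.501 for Fmo1 and 0.51 for Nqo1, and none passed. Those of PCN against Vehicle were 0.17, 0.325 and 0.0723 in the same order. Of the 5 tested genes of glutathione supply and the 7 tested redox partners (8 in HFD against Chow), 0 passed in each of the 6 comparisons of 2 groups. Ugdh, which makes UDP-glucuronate, was lower in every PCN, Vehicle and HFD library than in every Chow library, at 5.30 ± 2.20 CPM in PCN, 4.83 ± 0.941 CPM in Vehicle, 6.52 ± 1.65 CPM in HFD and 11.3 ± 2.11 CPM in Chow, with edgeR adjusted p of 0.126, 0.289 and 0.539 against Chow in that order.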

How the data were processed

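Per the labels' protocols, total RNA from muscle pieces was treated with DNase and made into Illumina libraries. HISAT2, HTSeq and DESeq2 are named in the submitters' processing notes, with the builds GRCm38 and mm10. Tool versions, the annotation release and whether counting used strand are not given there, so overlapping and antisense genes cannot be separated. The authors deposited raw counts per Ensembl gene in 2 tables of 6 libraries, with 24453 genes (PCN, Vehicle) and 24093 genes (HFD, Chow), 21976 of them shared. Every gene had at least 1 count over its 6 libraries. Exonic lengths came from GENCODE vM21.

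Each table was fitted on its own with edgeR 4.0.16 in R 4.3.3 (TMM, filterByExpr minimum count 10, robust quasi-likelihood F test). Comparisons across tables used 1 fit of all 12 libraries on the shared genes. P-values were Benjamini-Hochberg adjusted over all genes tested, with a threshold of 0.05, and SE was taken as the size of the log2 fold change over the root of its F. Members, pathway lists and marker lists were chosen with earlier results of these data known. Every member is named with its presence. Library values are given for members with an unadjusted p under 0.05 in any test, the 3 per family highest per length, and a fixed set. On simulated counts with 200 changed genes in PCN against Vehicle, edgeR recovered 50 of 100 genes changed 2-fold and 97 of 100 changed 4-fold, with 13 false among 160 calls. The changed genes were drawn from those above 3 CPM, and some tested members, such as Cyp26b1, Gstt2 and Sult5a1, lie below that level. DESeq2 1.42.0 gave 29 false among 190 calls, a share above the limit first set for the check, which was then widened for DESeq2. Standard errors of the fits include the spread between libraries as well as counting error. Protein sequences were not used here.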

Additional observations from a re-analysis of the deposited data

How the results depend on the processing

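No paired analysis was possible because the library numbers are unique and shared by no groups. Under the alternatives tried (DESeq2, its size factors, no expression filter, all 12 libraries or only the 6 compared in 1 fit, each library left out, Chow 17 and Chow 19 left out together, and removal of the length trend, which was chosen after seeing the data), no named member's called fold change reversed. In PCN against HFD, DESeq2 called 5 of 66 members, adding Gstm1 and Gstm2, against 5.02% of genes. A fit of only the 6 libraries called 2 of 32 (without Gsto1), against 2.94% of genes. With the length trend removed 0 of 32 were called, against 2.24% of genes. With 1 library left out 0 to 4 members were called, against 0.0436% to 6.02% of genes. Over the 4 groups, Gstp1 and Gstp-ps were called by DESeq2, 2 of 66 against 3.51% of genes. The same 2 of 66 were called without a filter, against 0.842% of genes. In HFD against Chow without a filter, 1 of 93 was called (Gsto1, edgeR adjusted p = 0.0442), against 0.984% of genes. In Vehicle against HFD, DESeq2 called 1 of 66 (Gstp1, adjusted p = 0.0486), against 1.19% of genes. In each comparison but PCN against HFD, members called were 0 whichever library was left out.

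Counts of all genes moved more, and the cause was not tested. DESeq2 called 771 genes over the 4 groups, 44 in HFD against Chow, 249 in PCN against Chow, 1103 in PCN against HFD, 53 in Vehicle against Chow and 262 in Vehicle against HFD. Without a filter the counts were 185 over the 4 groups, 237 in HFD against Chow, 48 in PCN against Chow, 21 in PCN against Vehicle, 9 in Vehicle against Chow and 2 in Vehicle against HFD. With the length trend removed they were 10 over the 4 groups and 299 in PCN against HFD. A fit of only the 6 libraries compared gave 1 in PCN against Chow, 5 in Vehicle against Chow and 193 in Vehicle against HFD. With 1 library left out they ran from 3 to 216 over the 4 groups, 0 to 219 in HFD against Chow, 1 to 196 in PCN against Chow, 6 to 827 in PCN against HFD and 0 to 5 in Vehicle against Chow, and stayed at 0 in PCN against Vehicle and Vehicle against HFD. At this depth and number of libraries, edgeR recovered 50 of 100 simulated 2-fold changes and 97 of 100 4-fold changes in PCN against Vehicle. These were genes above 3 CPM, and recovery at lower levels was not tested.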
